A study of Rattus norvegicus with 4 samples.

Results

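MicroRNAs (miRNAs) with a registry number of 3000 or more were followed in hepatocytes of the rat and in the endothelial cells of its liver sinusoids (LSECs). The members were all rat miRNA probes on the array whose name carries such a number, whatever the letter, copy number or arm, and there were 111 of them among 761 miRNA probes. Of these, 110 name 1 miRNA, and 1 names miR-3084a-3p, miR-3084b-3p and miR-3084d together. They were set beside 632 probes numbered below 3000, and 18 let-7 probes, which carry no such number, stood apart. The rule used names only and no measured value.

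The study compared 2 hepatocyte samples with 2 LSEC samples. All 4 came from male Sprague-Dawley rats aged 10 weeks, were not treated, and were hybridised as Cy5-labelled total RNA to a single-colour array each. Hepatocytes make up the parenchyma of the liver, and LSECs form the fenestrated wall of its capillaries. Nothing in the labels tells if separate animals were used, so p-values measure only the spread between these samples, which may be technical, and precision is limited by having 4 arrays.

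MiRNAs are numbered in the order in which they were registered, so a high number marks a late discovery, mostly by deep sequencing of small RNA. Each is cut as a 5p or a 3p arm from a hairpin precursor, and the seed, bases 2 to 8 of the mature strand, pairs with target messenger RNAs. Many late entries are known only in rodents and are weakly conserved. The number is no test of conservation, however, since miR-3064, miR-3065, miR-3074, miR-3120 and miR-3591 also have human counterparts. Some late entries are read from the DNA strand opposite a long-known hairpin, so that their sequence is largely the reverse complement of an earlier miRNA. Conservation was not measured here.

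RefSeq (rat build GRCr8) held a mature sequence for 99 of the 111 members. Those below carry the differences between the cell types described further on, with the seed in capitals and each written 5′ to 3′. The first group was called higher in LSECs.
miR-3473: uCUAGGGCuggagagauggcua
miR-3593-3p: cUUCAACCuuaagggggccuca
miR-5132-5p: cGUGGGGCgguggacccaggcu
miR-3065-3p: uCAGCACCaggauauuguugggga
miR-3560: cAAAUCCUugcccgggugcauu

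The second group was called higher in hepatocytes.
miR-6328: aGGCCUGCucugagcccccgc
miR-3584-5p: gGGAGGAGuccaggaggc
miR-3573-3p: uUCCUAACucugcccccucccau
miR-3064-3p: uUUGCCACacugcaacaccuuaca
miR-3559-5p: uGACAGACuuaguacuacauga
miR-3074: gAUAUCAGcucaguaggcaccg

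The third set shows 3 members read from the strand opposite another hairpin, with both arms of miR-122 for miR-3591 and the facing arm of let-7a for miR-3596a.
miR-3591: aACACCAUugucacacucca
miR-122-5p: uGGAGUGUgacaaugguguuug
miR-122-3p: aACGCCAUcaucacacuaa
miR-3596a: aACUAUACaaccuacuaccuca
let-7a-5p: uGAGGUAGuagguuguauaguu
miR-3590-5p: uGCCCUUUuaacauugcacug

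In GRCr8, miR-3473 lies at chr13:42051730-42051751 (plus strand), within Zranb3 on the opposite strand. MiR-3593-3p lies at chr6:78987770-78987791 (minus strand), and miR-5132-5p at chrX:156929468-156929489 (minus strand), within Irak1, which encodes a kinase of interleukin-1 receptor signalling, on the same strand. MiR-3065-3p lies at chr10:105796384-105796407 (plus strand), within Aatk on the opposite strand. MiR-6328 lies at chr20:2890159-2890179 (plus strand), within Ppp1r18 on the opposite strand. MiR-3584-5p lies at chr1:256727582-256727599 (minus strand), within Itprip, and miR-3573-3p at chrX:68299322-68299344 (plus strand), within Efnb1, the gene of ephrin-B1, both on the gene's strand. MiR-3064-3p lies at chr10:92225520-92225543 (minus strand), within Ddx5, the gene of an RNA helicase, also on the gene's strand. MiR-3591 lies at chr18:61028831-61028850 (minus strand), and miR-122-5p at chr18:61028831-61028852 (plus strand). The annotation used gives the span of each gene, and whether a miRNA falls in an exon or an intron was not analysed here. The array measured no messenger RNA.

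Levels below are spot medians minus the array's mean blank spot, in intensity units on a linear scale. A probe was detected where it exceeded the blank mean by 2 SD, which lay 3.43 and 5.26 units above it on the hepatocyte arrays 1 and 2 and 2.31 and 2.48 units above it on the LSEC arrays 1 and 2. Array 2 of the hepatocytes was brighter than array 1. Over the members detected on all 4 arrays, the median ratio was 1.75, against 1.09 between the LSEC arrays. The labelled cell types carried their markers. All 5 hepatocyte miRNAs listed, led by miR-122-5p, were called higher in hepatocytes, and both arms of the endothelial miR-126a higher in LSECs. MiRNAs listed as markers of other liver cells also moved with the groups. Whether the labelled cells themselves make them was not tested. The sums below add signals of different probes and measure no amount of a cell type. All 7 leukocyte and Kupffer cell miRNAs were called higher in LSECs. Their levels summed to 49.7 and 66.8 units in hepatocytes and 4245 and 4907 in LSECs, where miR-146a-5p alone read 2088 and 2182. All 5 stellate and mesenchymal miRNAs were also called higher in LSECs. They summed to 46.9 and 87.1 units in hepatocytes and 1613 and 1393 in LSECs. None of these 12 was at 0 in the LSEC samples. In the other direction, 3 of the 4 cholangiocyte and epithelial miRNAs tested were called higher in hepatocytes, with the list summing to 60.7 and 120 units there and 30.0 and 37.97 in LSECs. Of 2 erythroid miRNAs tested, miR-451-5p was called higher in hepatocytes, by -0.82 ± 0.16 as the LSEC minus hepatocyte log2 difference (limma adjusted p = 0.0259). The part of all these markers in the results below was not tested. In RNA from whole samples, fewer cells of a type and less RNA per cell cannot be told apart.

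Fewer late-numbered than earlier-numbered probes were above the detection limit in hepatocytes, and nearly as many in LSECs. On the hepatocyte arrays, 68 and 76 of the 111 members were detected, which is 61.3% and 68.5%, against 75.9% and 79.6% of the earlier-numbered probes. On the LSEC arrays, 99 and 92 members were detected, 89.2% and 82.9%, against 89.1% and 87.0%. The 2 hepatocyte arrays thus gave the lower shares and the 2 LSEC arrays the higher ones in both classes, and the cell types did not overlap. With 2 arrays against 2, an exact two-sided permutation test cannot give a p below 0.333, so no test of these shares was made. The blank spots varied more on the hepatocyte arrays, which set their limits higher, and the part of this in the shares was not tested.

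The negative control spots set a stricter limit, chosen after the data were seen. Of 32 such spots, 15, 18, 24 and 22 were above the blank-based limit on the hepatocyte arrays 1 and 2 and the LSEC arrays 1 and 2. The highest stood 11.7, 22.1, 16.1 and 15.8 units above the blanks. The spots were not alike. Negative Control 3 had all 8 of its spots above the blank-based limit on every array, with medians of 9.50, 20.2, 11.3 and 13.9 units. The medians of the other controls were 1.24 to 5.02 units. The members above the highest negative control numbered 31 and 26 on the hepatocyte arrays, then 40 and 43 for the LSEC arrays. These are 27.9%, 23.4%, 36.0% and 38.7% of the members, against 35.0%, 31.3%, 45.6% and 46.5% of the earlier-numbered probes, so the late-numbered share was the lower one on each array.

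**Figure D1:**
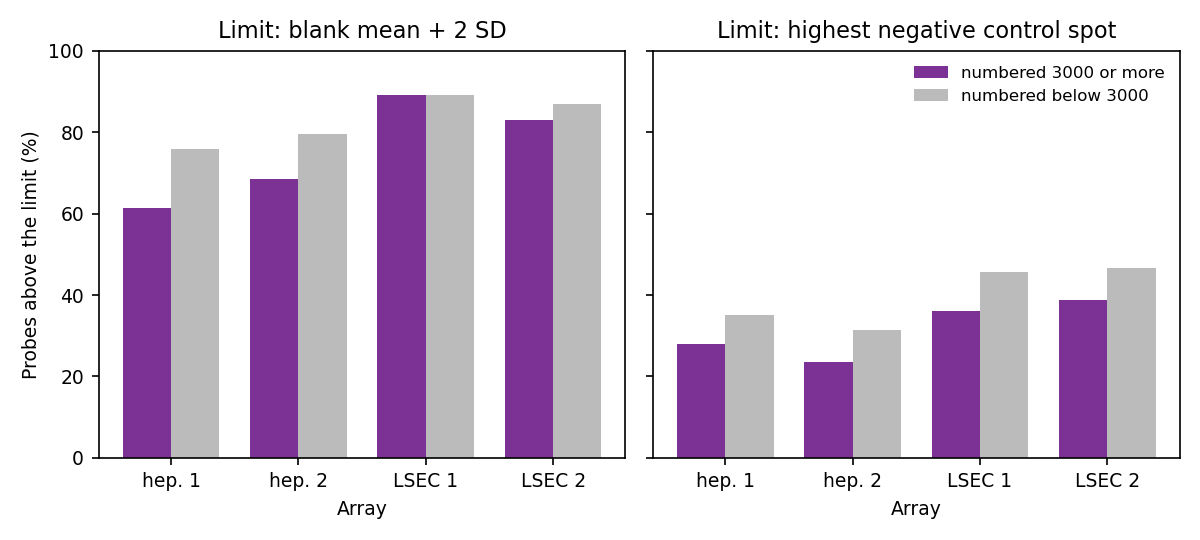
Share of probes above the detection limit (left) and above the highest negative control spot (right) on each array, for 111 late-numbered and 632 earlier-numbered probes, in percent. The late-numbered bars reach 61.3% to 89.2% at the first limit and 23.4% to 38.7% at the second.

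By pattern over the arrays, 56 members (50.5%) were detected on all 4, compared with 65.0% of the earlier-numbered probes. A further 8 (7.21%, against 3.48%) were detected on none, namely miR-3084b-5p, miR-3084c-5p, miR-3556b, miR-3580-3p, miR-3590-3p, miR-3595, miR-6325 and miR-6330. There were 12 members (10.8%, against 5.38%) detected on both LSEC arrays and on neither hepatocyte array, and 0 with the opposite pattern, compared with 5 of 632 earlier-numbered probes. The nearest to the opposite pattern was miR-3580-5p, on both hepatocyte arrays and 1 LSEC array. The 12 LSEC-side members were dim. The brightest of them, miR-3068-5p, read 21.2 and 29.3 units in LSECs and 2.61 and 0.02 in hepatocytes, and it was the only one of the 12 above the highest negative control on both LSEC arrays. The others included miR-3553, miR-3557-5p, miR-3561-3p, miR-3564, miR-3578, miR-3586-3p, miR-3590-5p, miR-3596a, miR-6316, miR-6331 and miR-6333. At the stricter limit, 24 members (21.6%, against 27.7%) were above it on all arrays and 65 (58.6%, against 49.1%) on none. A further 16 (14.4%, against 16.5%) were above it on both LSEC arrays but not both hepatocyte arrays, and 1 (0.901%, against 2.37%), miR-3559-5p, on both hepatocyte arrays but not both LSEC arrays. The LSEC-side pattern at the stricter limit takes in members above it on 1 or on neither hepatocyte array. At the blank-based limit, these were 22 members (19.8%, against 12.2%) and the 12 members above (10.8%, against 5.38%). The larger LSEC-side share of the late-numbered class there was not seen at the stricter limit.

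The late-numbered class was dim as a whole. Probe brightness depends on the probe as well as on the amount of RNA, so these class values describe signals and give no order of abundance. The members' median was 5.30 and 11.3 units on the hepatocyte arrays, then 9.99 and 10.7 for the LSEC arrays, against 6.78, 11.7, 13.1 and 13.3 for earlier-numbered probes. The gap was wider at the upper quartile, where the members read 13.2, 20.8, 27.5 and 30.0 units and the earlier-numbered probes 19.4, 31.3, 49.7 and 56.7. On no array did a late-numbered probe come near the top of the range. The highest member was miR-3072 on the hepatocyte arrays, at 736 and 1400 units, and the probe of miR-3084a-3p on the LSEC arrays, at 1448 and 1876. The highest earlier-numbered probes were miR-122-5p, at 21380 and 37971 units in hepatocytes, and miR-126a-3p, at 43584 and 44736 in LSECs. Over 100 units stood 9, 12, 16 and 16 of the members in array order, and 64, 83, 118 and 121 of the earlier-numbered probes. These are 8.11%, 10.8%, 14.4% and 14.4% of the members, against 10.1%, 13.1%, 18.7% and 19.1% of the earlier-numbered probes.

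**Figure D2:**
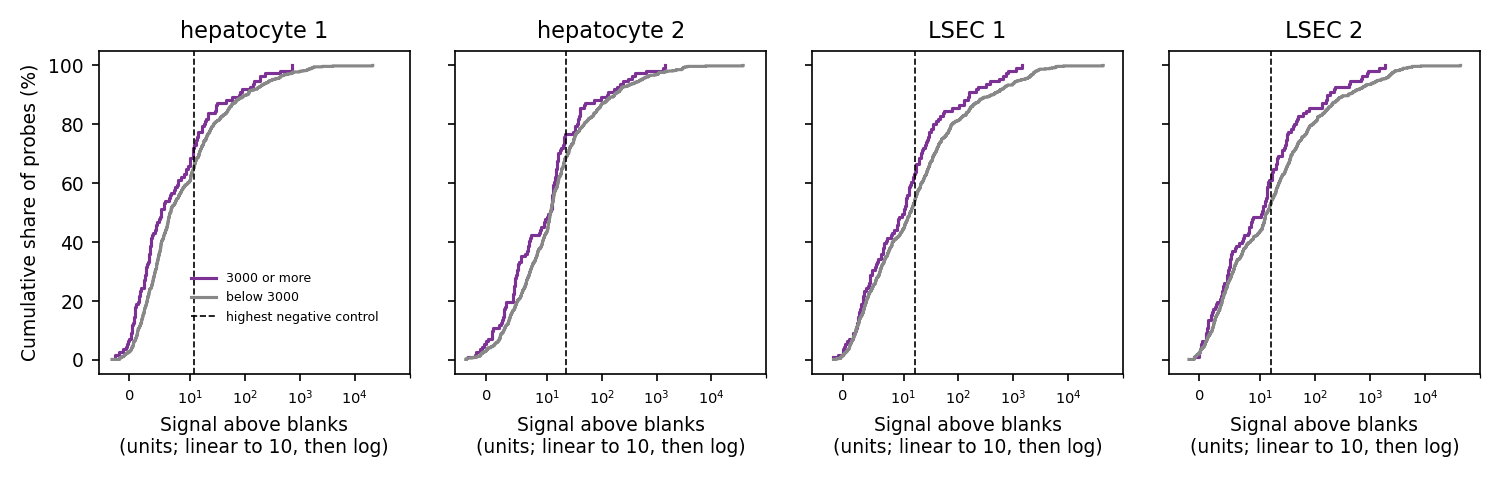
Cumulative share of probes (percent) against the signal above the blanks (intensity units, linear to 10 and then logarithmic) on each array, for late-numbered (purple) and earlier-numbered probes (grey); the dashed line is the highest negative control spot. The late-numbered curve ends at 736, 1400, 1448 and 1876 units.

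Detection on both arrays of 1 or both cell types was required for testing, and 91 members met it. Of these, 24 differed between the cell types in the limma fit over all 652 miRNAs tested (Benjamini-Hochberg adjusted p from 0.000611 to 0.0420). That is 26.4% of the members tested, against a background of 37% of all miRNAs tested and 38.7% of the earlier-numbered ones. In LSECs 10 members were called higher (background 18.6% of all tested) and in hepatocytes 14 (background 18.4%). At least 2-fold differences were called for 7 members, 7.69%, against a background of 13.7%. Members above the highest negative control on both arrays of 1 cell type were called in 25 of 41 cases, against a background of 65% of the miRNAs tested under that limit, and the difference between the classes was not tested. The median LSEC minus hepatocyte difference of the members was -0.00 on the log2 scale, and its median size was 0.11, against 0.15 for the earlier-numbered probes. Differences here are on the log2 scale of intensity plus an offset of 50, which understates the change of dim probes. The members ranged from -2.05 to 1.34 and the earlier-numbered probes from -8.25 to 8.41. Without an LSEC array, fewer members and fewer of all miRNAs tested were called than without a hepatocyte array. In each such fit the lone array of a cell type was assumed to vary like the pair of the other. All 24 differences kept their direction in these 4 fits, which their choice as calls on the same arrays favours. Their median size, 0.63 over all arrays, was 0.58 to 0.67.

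In LSECs the leading member was miR-3473. It read 81.0 and 98.4 units on the hepatocyte arrays, then 802 and 682 for the LSEC arrays, and its difference was 1.34 ± 0.18 (SE, n = 2 and 2, limma adjusted p = 0.00855). Both LSEC arrays lay far above both hepatocyte arrays. MiR-6318 read 19.1 and 46.7 units in hepatocytes and 228 and 217 in LSECs, with a difference of 1.06 ± 0.12 (limma adjusted p = 0.00470). MiR-3593-3p read 187 and 191 units in hepatocytes and 1098 and 1474 in LSECs, with a difference of 1.01 ± 0.21 (limma adjusted p = 0.0288). In each of these 3 both LSEC spots were far above both hepatocyte spots, and after normalization the folds were 2.53, 2.08 and 2.01.

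The next LSEC member was miR-5132-5p, from the Irak1 locus. It read 44.4 and 73.6 units in hepatocytes and 206 and 234 in LSECs, differing by 0.45 ± 0.05 (limma adjusted p = 0.00573). MiR-3065-3p rose from 9.33 and 12.8 to 47.0 and 45.3 units, a difference of 0.36 ± 0.05 (limma adjusted p = 0.0102). MiR-3560 read 16.8 and 32.8 units in hepatocytes against 77.7 and 75.7 in LSECs, a difference of 0.28 ± 0.06 (limma adjusted p = 0.0390). All of these had both LSEC arrays above both hepatocyte arrays.

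The other 4 LSEC calls were dim or small. MiR-3068-5p, from within Alkbh1, was not detected in hepatocytes and was at least 1.25-fold higher in LSECs (limma adjusted p = 0.0105). MiR-3564 was likewise at least 1.04-fold higher, with 6.37 and 8.47 units in LSECs (limma adjusted p = 0.0258). Such a bound sets the mean of the LSEC arrays against the lowest signal counted as detected, or the hepatocyte spot itself where higher. MiR-6315, from within Vps51, differed by 0.20 ± 0.04 (limma adjusted p = 0.0241) and miR-3573-5p by 0.17 ± 0.04 (limma adjusted p = 0.0291). Without LSEC array 1 or LSEC array 2, the largest LSEC difference was 1.15 and 1.39 (1.34 over all arrays).

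**Figure D3:**
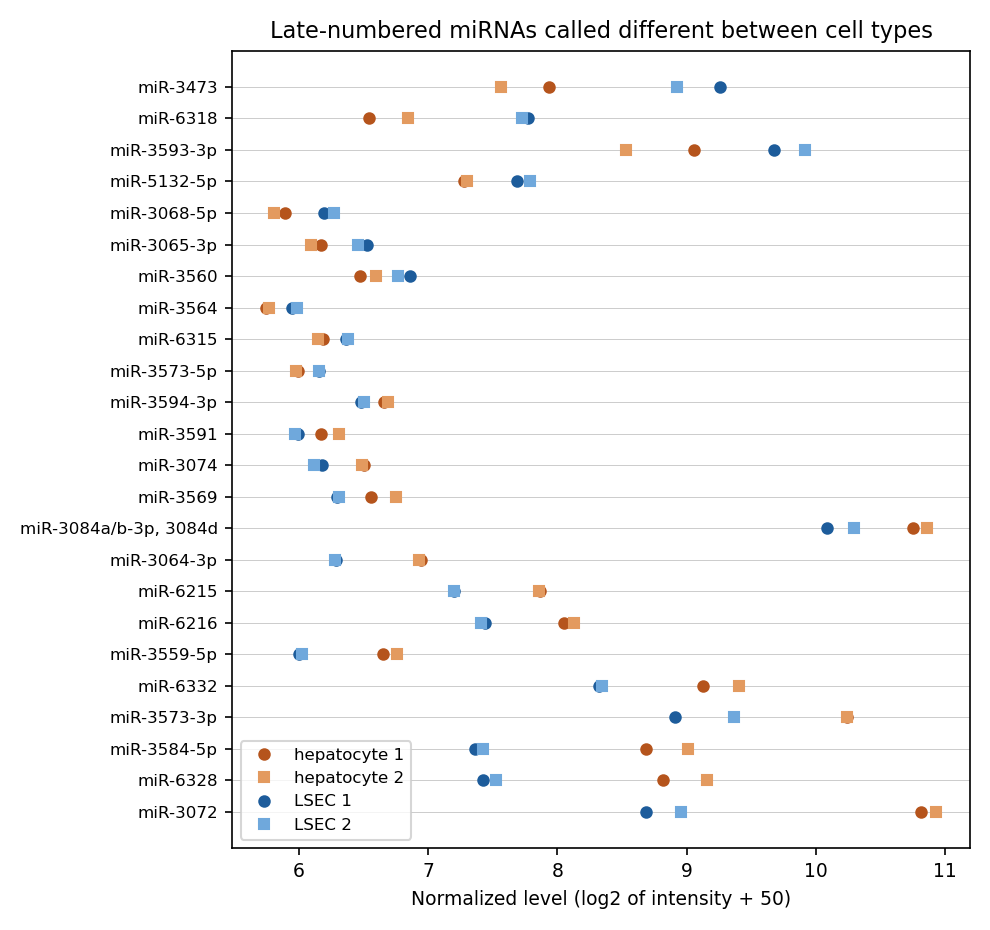
Normalized level (log2 of intensity plus 50) of each of the 24 called members on the 4 arrays, ordered by the LSEC minus hepatocyte difference. It runs from -2.05 for miR-3072 at one end to 1.34 for miR-3473 at the other, and all 24 have separate hepatocyte and LSEC points, which the test itself favours.

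In hepatocytes the leading member was miR-3072. It read 736 and 1400 units on the hepatocyte arrays, then 554 and 699 for the LSEC arrays, and its difference was -2.05 ± 0.11 (SE, n = 2 and 2, limma adjusted p = 0.000611). Both hepatocyte arrays were above both LSEC arrays, by a small margin for array 1. MiR-6328 read 148 and 308 units in hepatocytes and 159 and 187 in LSECs, with a difference of -1.51 ± 0.13 (limma adjusted p = 0.00242). MiR-3584-5p read 125 and 250 units in hepatocytes and 152 and 168 in LSECs, with a difference of -1.45 ± 0.12 (limma adjusted p = 0.00238). For these last 2 the spot levels of the cell types overlapped, and they separated only after normalization.

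Several hepatocyte calls went against their own spot levels. MiR-3573-3p read 427 and 646 units in hepatocytes and 636 and 875 in LSECs, and its normalized difference was -1.10 ± 0.17 (limma adjusted p = 0.0116). MiR-6332, from within Rere, read 191 and 364 units in hepatocytes and 380 and 408 in LSECs, with a difference of -0.94 ± 0.11 (limma adjusted p = 0.00517). The probe of miR-3084a-3p, miR-3084b-3p and miR-3084d read 723 and 1305 units in hepatocytes and 1448 and 1876 in LSECs, with a difference of -0.61 ± 0.09 (limma adjusted p = 0.0107). These 3 had the higher mean spot level in LSECs and were called higher in hepatocytes. Quantile normalization gives equal ranks equal values, and the upper quartile of all miRNA spots was 19.2 and 31.4 units in hepatocytes and 48.9 and 52.5 in LSECs. MiR-6215 and miR-6216, with differences of -0.66 and -0.67 and overlapping spot levels, also reversed under other scalings. The hepatocyte markers summed to 25983 and 46686 units in hepatocytes and 158 and 135 in LSECs.

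MiR-3559-5p and miR-3064-3p had separated spot levels. MiR-3559-5p, from within Zdhhc15, read 21.0 and 40.6 units in hepatocytes and 9.14 and 11.01 in LSECs, with a difference of -0.69 ± 0.05 (limma adjusted p = 0.00173). MiR-3064-3p, from within Ddx5, read 30.3 and 49.7 units in hepatocytes and 28.4 and 29.5 in LSECs, with a difference of -0.65 ± 0.04 (limma adjusted p = 0.000642). In both, each hepatocyte array stood above each LSEC array, but for miR-3064-3p hepatocyte array 1 did so by a small margin. The remaining hepatocyte calls were miR-3569 and miR-3074 (both -0.35), whose spot levels overlapped, miR-3591 (-0.26), described further on, and miR-3594-3p (-0.18). MiR-3594-3p read 21.1 and 37.4 units in hepatocytes and 42.8 and 48.2 in LSECs, so its spot levels went against its call.

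Calls were compared across scalings by direction. Of the 10 LSEC calls, 9 kept their direction under all 6 other scalings that gave them a value, the exception being miR-3573-5p at the 75th percentile. Of the 14 hepatocyte calls, 1 did, miR-3559-5p. Leaving out the scaling by spike control spots, 8 did, namely miR-3072, miR-6328, miR-3584-5p, miR-3559-5p, miR-3064-3p, miR-3569, miR-3074 and miR-3591. The spike scaling moved the median of all miRNAs tested by 0.27, the authors' values (log2 without an offset) by 0.28 and the 75th percentile by -0.15 on the log2 scale, so zero sits at another place under each. Relative to the spike median of 0.27, miR-3559-5p (-0.13), miR-3591 (0.04), miR-3074 (0.19), miR-3064-3p (0.20) and miR-3072 (0.21) lay below the median miRNA, and the other hepatocyte calls, from miR-3569 (0.38) and miR-6328 (0.48) to the miR-3084a-3p probe (1.61), lay above it. Scaled by the spikes, 64 of the 91 members tested were called higher in LSECs and 0 in hepatocytes. Among all 652 miRNAs tested, these were 433 and 21. Without normalization, 10 members were called higher in LSECs and 0 in hepatocytes, against 150 and 27 of all 652. At the 75th percentile, 9 members were called higher in LSECs and 40 in hepatocytes, against 137 and 308 of all 652.

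**Figure D4:**
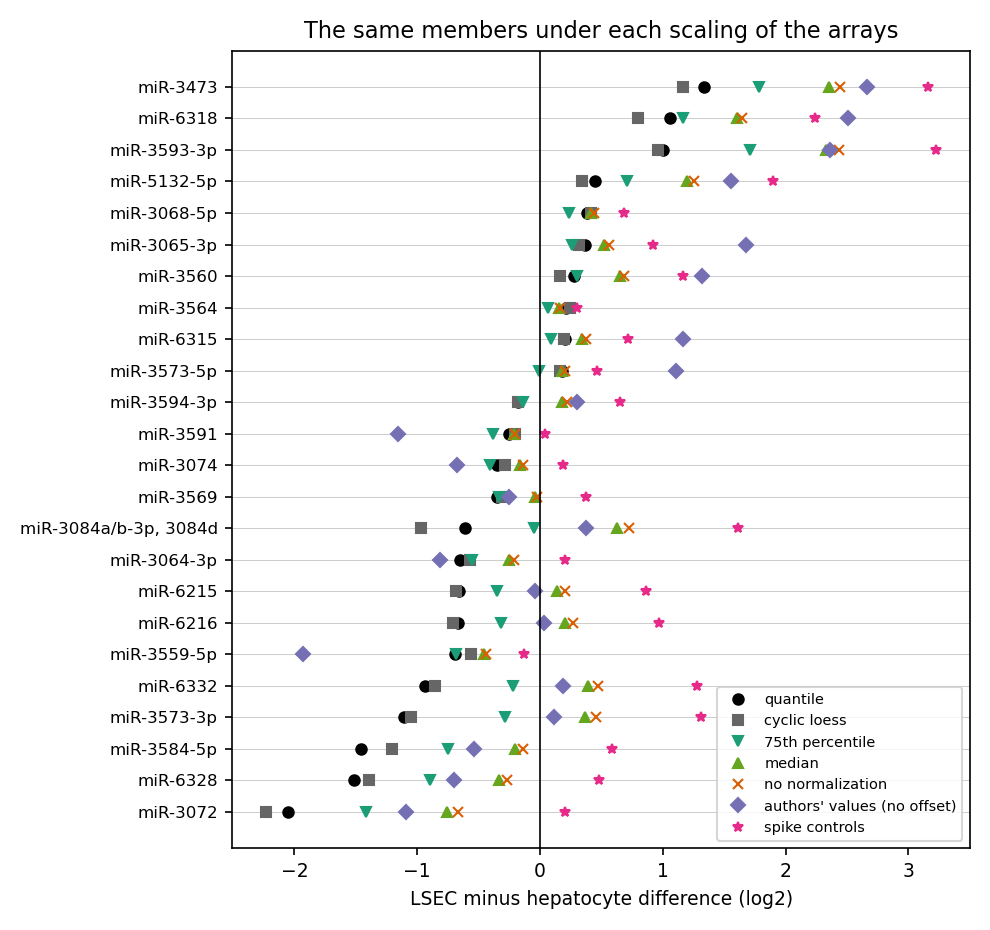
LSEC minus hepatocyte difference (log2) of the 24 called members under each scaling of the arrays, 1 symbol per scaling (the authors' values carry no offset), with zero marked by the vertical line. MiR-3473 stays right of zero throughout, from 1.16 to 3.16, while miR-3573-3p ranges from -1.10 to 1.31.

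Some of the brightest members did not pass the test. MiR-3068-3p, the other arm of miR-3068, read 233 and 402 units in hepatocytes and 724 and 920 in LSECs, with a normalized difference of -0.24 (limma adjusted p = 0.168). Its spot levels and its normalized difference pointed in opposite directions. MiR-3541 read 140 and 218 units in hepatocytes and 319 and 437 in LSECs, with a difference of -0.46 (limma adjusted p = 0.0634). MiR-3084c-3p read 57.8 and 124 units in hepatocytes and 128 and 159 in LSECs, with a difference of -0.38 (limma adjusted p = 0.0606).

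Among the members, 29 probes of 27 hairpins are read from the strand opposite an earlier-numbered hairpin. Their median signal was the lower one, at 4.41 and 6.81 units on the arrays of hepatocytes and 8.48 and 8.08 on those of LSECs, against 6.31, 12.8, 13.3 and 13.3 for the 70 other members with a RefSeq place. None of the 29 exceeded 100 units on any array. On all arrays 10 were detected and on none 3, and 4 were above the highest negative control on both arrays of 1 cell type (miR-3065-3p, miR-3074, miR-3560 and miR-3596c), against 33 of the 70. Of 23 tested, 4 were called (17.4%, against the background of 37%): miR-3065-3p and miR-3560 higher in LSECs and miR-3074 and miR-3591 higher in hepatocytes.

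Of these members, 28 face an earlier-numbered arm over at least 10 bases, and 17 lie wholly opposite one. The facing arms were called different between the cell types in 12 of the 28 pairs and the members in 4, some of each not being tested. Over all arms of the earlier-numbered hairpins, facing or not, 45 were tested and 20 called. The background was 37% of all miRNAs tested, and the contrast between facing arms and members was not tested. Both were called in the same direction in 2 pairs, miR-3591 with miR-122-5p and miR-3560 with miR-501-3p, and in opposite directions in 1, miR-3074 with miR-24-1-5p. The facing arms reached 21380, 37971, 5319 and 5993 units on the 4 arrays, where the members' highest values were 17.6, 32.8, 77.7 and 75.7. Above the highest negative control were 11, 12, 15 and 15 of the facing arms and 3, 3, 4 and 5 of the members.

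The partner of miR-3591 is miR-122, the most abundant miRNA of hepatocytes. MiR-122-5p read 21380 and 37971 units in hepatocytes and 109 and 77.9 in LSECs, differing by -8.25 (limma adjusted p = 1.87e-05). MiR-3591, all of whose 20 bases lie opposite it, read 9.36 and 20.5 units in hepatocytes and 8.996 and 7.36 in LSECs, differing by -0.26 ± 0.06 (limma adjusted p = 0.0420). Its values stayed below the highest negative control on all arrays, and only hepatocyte array 2 stood well above the others. The miR-3591 sequence also resembles miR-122-3p, with 14 of its 20 bases matching in the same sense, as the sequences above show. MiR-122-3p read 1504 and 3325 units in hepatocytes and 12.8 and 12.2 in LSECs. Whether the miR-3591 probe also bound miR-122-3p was not tested.

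MiR-3596a, opposite let-7a-5p, had a partner that was brighter in LSECs. Let-7a-5p read 1162 and 1947 units in hepatocytes and 4962 and 5993 in LSECs, with a difference of 0.74 ± 0.14 (limma adjusted p = 0.0225). MiR-3596a read 1.70 and -0.69 units in hepatocytes and 8.48 and 7.20 in LSECs, and its difference of 0.15 was not called (limma adjusted p = 0.0673). The LSEC arrays were above the hepatocyte arrays for both, and the miR-3596a values stayed below the highest negative control. The relatives miR-3596b, miR-3596c and miR-3596d, facing let-7d-5p, let-7e-5p and let-7f-5p, had no call either.

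Other partners with large differences also had dim opposite strands. MiR-130a-3p read 56.9 and 139 units in hepatocytes and 1611 and 1631 in LSECs, differing by 2.35 (limma adjusted p = 0.00102), while miR-3590-5p read 0.35, 2.94, 3.84 and 4.92 units in array order. MiR-29b-3p differed by 2.17 (limma adjusted p = 0.00242), while miR-3587 read 3.29, 6.81, 2.68 and 3.94 units. The miR-338 hairpin has both strands represented. MiR-3065-5p, which faces miR-338-3p, read -0.98, 8.94, 3.47 and -0.10 units and was not tested, whereas miR-338-3p rose in LSECs by 1.31 ± 0.17 (limma adjusted p = 0.00705), and miR-3065-3p, which faces miR-338-5p, was called higher in LSECs as given above. MiR-3120, opposite the miR-214 hairpin, overlaps miR-214-5p by 1 base and miR-214-3p by 0, so it faces neither arm. It read 6.75 and 13.2 units in hepatocytes and 6.82 and 11.2 in LSECs and was not called (limma adjusted p = 0.213). MiR-214-3p differed by 0.98 ± 0.07 (limma adjusted p = 0.00109). MiR-214-5p read 0.57, 6.56, 2.14 and 1.04 units in array order and was not tested.

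**Figure D5:**
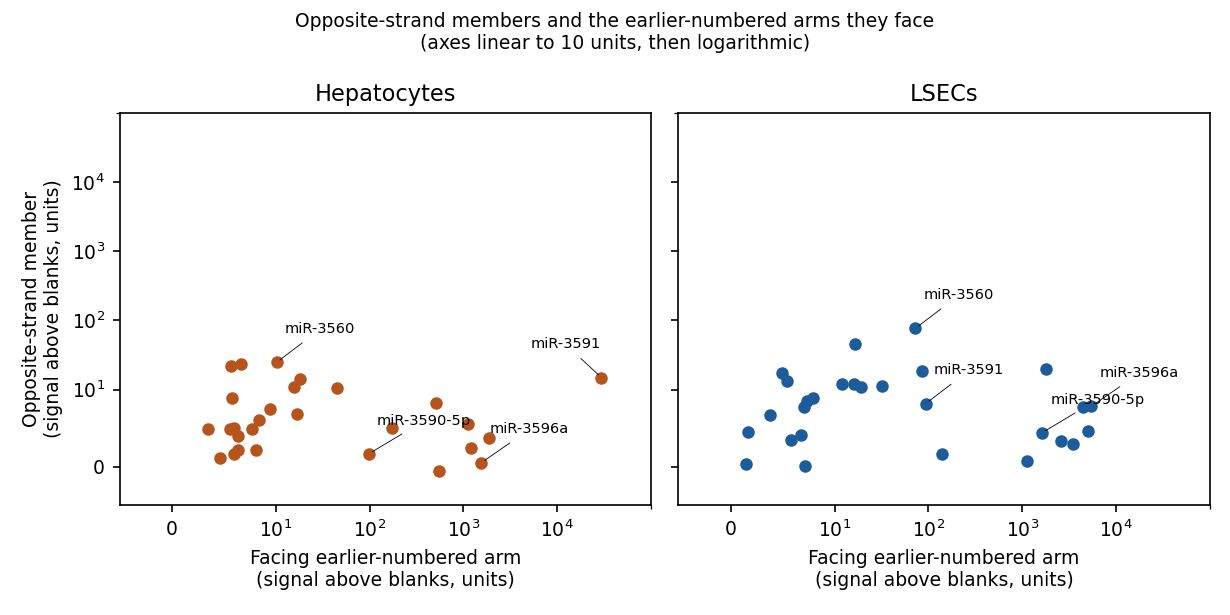
Signal above the blanks of each opposite-strand member against that of the earlier-numbered arm it faces (28 pairs, mean of the 2 arrays, intensity units, linear to 10 and then logarithmic), in hepatocytes and in LSECs. The miR-122-5p arm reads 21380 and 37971 units in hepatocytes, while no member exceeds 100.

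Where both arms of a late-numbered hairpin were on the array, calls were counted by hairpin. Of such arms, 31 were tested and 10 called (32.3%), near the background of 37% of all miRNAs tested. The same division was not made for earlier-numbered hairpins. There were 19 such hairpins, and in 13 both arms were tested. Both arms were called in 1, 1 arm in 7 and neither in 5. The hairpin with both arms called was miR-3573, whose 5p arm was higher in LSECs (0.17) and whose 3p arm was higher in hepatocytes (-1.10). The sign of the 3p arm, as given above, depends on the scaling. For miR-3559 the 5p arm differed by -0.69 and the 3p arm by 0.00, for miR-3593 the 3p arm by 1.01 and the 5p arm by 0.07, and for miR-3584 the 5p arm by -1.45 and the 3p arm by 0.23 (limma adjusted p = 0.0520). The difference between arms was not tested, and an arm that was not called is not shown to be equal.

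Calls by bin of number are read against the background of 37% of all miRNAs tested. Of 19 members numbered from 3000 to below 3500, 16 were tested and 7 called (43.8%, with 3 higher in LSECs and 4 in hepatocytes). Of 66 numbered from 3500 to below 4000, 55 were tested and 10 called (18.2%, 4 and 6). Of 24 numbered 6000 or more, 18 were tested and 6 called (33.3%, 2 and 4), and of the 2 arms of miR-5132, 1 was called. The bins also differed in brightness, with 12 of 19, 19 of 66 and 8 of 24 members above the highest negative control on both arrays of 1 cell type, and the share of calls was not separated from it. Members within a protein-coding gene on the same strand were called in 10 of 29 tested cases (34.5%), and members within one on any strand in 19 of 54 (35.2%), both near the background of 37%.

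Brighter members were richer in G and C. The members had a median GC content of 50% (99 with a sequence), against 47.6% for 572 earlier-numbered probes with one, and both classes had a median length of 22 bases. Across members, GC content and level correlated with Spearman's rho of 0.59 in hepatocytes and 0.65 in LSECs (n = 99 probes sharing the same arrays), against 0.38 and 0.36 across earlier-numbered probes. Members above the highest negative control on all 4 arrays (22 with a sequence) had a median GC content of 55.8%, and those above it on no array (58) one of 45.6%. The called members include GC-rich ones, such as miR-5132-5p at 77.3%, miR-6328 at 76.2% and miR-3584-5p at 72.2%, and AT-rich ones, such as miR-3559-5p at 36.4%. The part of GC content in the levels was not tested.

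Seeds were almost all distinct. The 99 sequences held 98 seeds, and 4 of these were shared with an earlier-numbered miRNA or let-7. MiR-3573-5p shares its seed with miR-423-5p, and both were called higher in LSECs, by 0.17 and 0.43. MiR-3084c-3p shares its seed with miR-192-3p, from the hairpin of a hepatocyte marker. MiR-192-3p differed by -0.91 ± 0.04 (limma adjusted p = 0.000274), with 27.0 and 45.6 units in hepatocytes and 5.02 and 4.08 in LSECs, while miR-3084c-3p did not pass the test. MiR-3065-5p shares a seed with miR-7a-1-3p, and miR-3596d with miR-98-3p and 3p arms of let-7, and none of these was called. Within the class, miR-3084a-5p and miR-3084c-5p share a seed.

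At the edge of the rule, the highest-numbered probe outside it, miR-2985, read 5.09 and 13.99 units in hepatocytes and 13.6 and 15.9 in LSECs. The lowest-numbered inside it, miR-3064-5p, read 11.2 and 14.5 units in hepatocytes and 16.0 and 16.3 in LSECs, with the 3p arm as given above.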

How the data were processed

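The files were 4 single-colour arrays (Toray 3D-Gene). Per the file headers, the deposited scanner tables hold spot median intensity merged from 3 scan gains, with the background still in. The authors' deposited table holds processed intensity values: the spot median minus the trimmed blank mean, scaled per array, as a comparison with the scanner tables showed. Here spot medians were background-corrected by normexp over all spots (offset 50), the 761 miRNA probes were quantile-normalized, and log2 values were fitted with limma 3.58.1 (R 4.3.3). Detection limits were the blank mean plus 2 SD after trimming 5% at each end. Calls used a Benjamini-Hochberg adjusted p under 0.05 over 652 miRNAs. The code was tested on simulated data.

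Named members were all those called, the 10 brightest per cell type, those detected in 1 cell type only, those with an opposite-strand or seed partner, and the edge of the rule. Members and lists were chosen with earlier results of these data known. Alternatives changed the background, scaling, filter, limma options, replicate block and arrays.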

Additional observations from a re-analysis of the deposited data

How the results depend on the processing

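The count of 24 members called different kept within 1.5 times under most alternatives. It was 0 with the deposited background column subtracted, 49 scaled by the 75th percentile, 10 without normalization and 64 scaled by the spike control spots, and 6 to 27 over the fits that left out 1 array. Among all 652 miRNAs tested, 241 were called in the report. There were 17 with the background column, 445 by the 75th percentile, 177 without normalization and 454 with the spikes. Members higher in LSECs, 10 in the report, were 0 with the background column, 25 scaled by the median and 64 with the spikes. Of all 652 miRNAs tested, 121 in the report, these were 10, 221 and 433. With the authors' values, 17 of 56 members were higher in LSECs, against 196 of all 482. Members higher in hepatocytes, 14, were 0 with the background column, 7 by the median, 40 by the 75th percentile, 0 without normalization, 0 with the spikes and 5 to 19 without 1 array. All miRNAs tested that were higher in hepatocytes, 120 in the report, were 7 with the background column and 108 by the median. They were 308 by the 75th percentile, 27 without normalization and 21 with the spikes. The members' median difference moved from -0.00 to -0.15 (75th percentile), 0.26 (spikes), 0.30 (authors' values), -0.087 (members detected on all arrays) and -0.080 (members above the highest negative control, chosen after seeing the data), and ran from -0.04 to 0.01 without 1 array. Without LSEC array 1 or 2, calls among all miRNAs tested fell as well, and the fall among members was not separated from this. The cause of these changes was not tested.

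The labels number the replicates 1 and 2 in both cell types, and nothing in them tells if same-numbered samples belong together. Across miRNAs, the deviations of same-numbered samples from their group means correlated by 0.03 after normalization. With 2 arrays per cell type, this value cannot settle the question. With the replicate number as a block, 18 members were called (19.8%, against 30.4% of all miRNAs tested), 5 of them higher in LSECs.

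The mean share of members detected, 64.9% in hepatocytes and 86.0% in LSECs, was 40.1% and 64.0% at a limit of 5 SD, 52.7% and 80.6% with untrimmed blanks, and 25.7% and 37.4% above the highest negative control. The median level, 8.30 and 10.4 units, was 25.4 and 18.7 on the authors' scale, for listed miRNAs, and 0.869 and 0.809 as a ratio to the array's median.

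Single differences reversed as follows. With the background column, miR-3559-5p became 0.029 and miR-6328 0.41. Without normalization, miR-3068-3p became 1.26, the miR-3084a-3p probe 0.72, miR-3541 0.88, miR-3573-3p 0.46, miR-3594-3p 0.22, miR-6215 0.20, miR-6216 0.27 and miR-6332 0.47. By the median these 8 became 1.17, 0.63, 0.80, 0.36, 0.18, 0.14, 0.21 and 0.39. With the authors' values miR-3068-3p became 1.03, the miR-3084a-3p probe 0.37, miR-3541 0.71, miR-3573-3p 0.12, miR-3594-3p 0.30, miR-6216 0.035 and miR-6332 0.19. By the 75th percentile miR-3068-3p became 0.53, miR-3548 -0.14, miR-3571 -0.18, miR-3573-5p -0.0046 and miR-3596b -0.18. With the spikes miR-3064-3p became 0.20, miR-3068-3p 2.09, miR-3072 0.21, miR-3074 0.19, the miR-3084a-3p probe 1.61, miR-3541 1.65, miR-3569 0.38, miR-3573-3p 1.31, miR-3574 0.19, miR-3575 0.17, miR-3584-5p 0.59, miR-3591 0.040, miR-3594-3p 0.65, miR-6215 0.86, miR-6216 0.97, miR-6328 0.48 and miR-6332 1.28.

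In fits without 1 array, where the lone array is assumed to vary like the other pair, all 24 kept their direction. Their choice as calls on the same arrays favours this. The median size was 0.58 to 0.67 against 0.63. Most of the 24 were not called without LSEC array 1 or 2, where fewer of all miRNAs tested were called too. On no array did 65 of the 111 members exceed the highest negative control spot, among them the called miR-3564 and miR-3591, whose small differences are read with that limit.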
